A study of Mus musculus with 4 samples.

Results

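In all, 10 genes of triglyceride assembly are described here in sarcomas of W/+ mice: the lipins Lpin1, Lpin2 and Lpin3, the diacylglycerol acyltransferases Dgat1 and Dgat2, and Gpam, Agpat2, Gpd1, Pck1 and Mogat2. They were found by symbol in the deposited table, where all 10 of them were present among 56691 genes. They had been chosen by their place in the glycerol phosphate pathway and were selected on measured values, the counts and FPKM of ATO against Ctl sarcomas in these same data. The difference between ATO and Ctl is therefore given for them as a description, without a test. RNA-seq was performed on 4 sarcomas, 2 from mice treated with arsenic trioxide (ATO 1 and ATO 2) and 2 from control mice (Ctl 1 and Ctl 2). All 4 mice carried 1 mutant and 1 wild-type p53 allele, a genotype made by CRISPR/Cas9 targeting that the labels write p53R282W/+ with the human residue number. ATO was given at 35 mg per L drinking water from day 90 after birth until death, while the labels name PBS for the Ctl mice. The age at collection and the type of sarcoma are not given in the labels, and each sarcoma was taken as a separate sample of its group. The labels of all 4 also carry a culture protocol with dexamethasone, isobutylmethylxanthine and insulin, agents known to drive cultured preadipocytes to adipocytes. Being the same in both groups it separates no samples, and whether it was applied was not tested.

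Triglyceride is built on a glycerol backbone. Glycerol 3-phosphate is acylated to lysophosphatidic acid by glycerol-3-phosphate acyltransferases such as Gpam, and again to phosphatidic acid by Agpat enzymes. Lipins remove the phosphate to give diacylglycerol, and Dgat1 or Dgat2 add the last acyl chain. The backbone comes from glycolysis through Gpd1 or, in fat and liver, from glyceroneogenesis, for which Pck1 makes phosphoenolpyruvate. Mogat2 serves another route, the acylation of monoacylglycerol, best known from the small intestine. Adipose tissue expresses the glycerol phosphate pathway at high levels, and inherited loss of AGPAT2 causes lipodystrophy in people, as loss of Lpin1 does in mice.

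Libraries held between 15259695 and 18134000 counts. Levels are given as normalised CPM, counts scaled to library size after TMM correction for differences in RNA composition, and a gene with 0 counts may have had up to 3, or between 0.151 and 0.240 CPM. Of all counts, 14.7% in ATO 2 were mitochondrial, and at most 2.59% elsewhere. FPKM, which also divides by exon length, is used below for levels and for comparisons between genes, and normalised CPM for differences between sarcomas. The ATO sarcomas also differed from the Ctl sarcomas, and from each other, in the markers of tissues that use this pathway. The 8 adipocyte markers summed to 13.7 and 73.8 FPKM in Ctl 1 and Ctl 2, 373 in ATO 1 and 1890 in ATO 2, and each of the 8 was higher in ATO 1 and in ATO 2 than in either Ctl. Most of the Ctl sums came from Fabp4, at 12.63 FPKM in Ctl 1 and 66.1 in Ctl 2, while Adipoq had 0.08 in each. Plin1, Lep and Retn had 0 counts in Ctl 1, as did Lep in Ctl 2. The 4 brown adipocyte markers summed to 0.07 and 0.41 FPKM in Ctl 1 and Ctl 2, 52.2 in ATO 1 and 2760 in ATO 2, where Ucp1, the uncoupling protein that defines brown fat, reached 1485 FPKM. In ATO 1 nearly all of the sum was Cox8b (50.7 FPKM), while Cidea had 1.19 FPKM and Elovl3 0.31. Ucp1 had 1 count in ATO 1 and 2 and 3 counts in the Ctl sarcomas. The 8 skeletal muscle markers summed to 6.94 and 124 FPKM in Ctl, 14500 in ATO 1 and 1060 in ATO 2. Of other tissues that use these enzymes, the 7 hepatocyte markers summed to at most 20.9 FPKM in a sarcoma, nearly all of it Cyp2e1 in ATO, while Alb had at most 22 counts. The 5 enterocyte markers summed to at most 1.38 FPKM, and the 4 kidney tubule markers to at most 0.05. The 5 stromal markers, collagens and Vim among them, summed to 4770 and 1480 FPKM in Ctl and 3950 and 1150 in ATO. The collagens overlapped between the groups. Vim, at 581.3 and 811.6 FPKM in Ctl and 130.5 and 272.0 in ATO, was lower in both ATO sarcomas than in either Ctl. So was Pdgfrb, at 98.6 and 70.79 FPKM in Ctl and 36.17 and 23.72 in ATO. The 5 leukocyte markers summed to between 120 and 292. In bulk tissue, fewer cells of a type and less RNA per cell cannot be told apart. The part of these tissues in the results below was not tested, and the fold change of each of the 10 genes is given with and without ATO 2.

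Promoters of the 10 genes were examined first. RefSeq windows on GRCm38.p6 were found for 6 of the 10 genes, Lpin1, Lpin2, Lpin3, Gpam, Agpat2 and Pck1, and not for Dgat1, Dgat2, Gpd1 and Mogat2. The 250 bases before the annotated start were searched on both strands for 7 short motifs, and 5 windows are printed, those of the 4 genes among these 6 with the highest fitted fold changes, 5′ to 3′ along the gene, with every match in capitals. They lie at chr12:16610967-16611216 on the minus strand (Lpin1), chr2:173152823-173153072 on the plus strand (Pck1), chr2:26604418-26604667 on the minus strand (Agpat2), and chr19:55127239-55127488 and chr19:55099478-55099727 on the minus strand (Gpam starts 1 and 2).
Lpin1: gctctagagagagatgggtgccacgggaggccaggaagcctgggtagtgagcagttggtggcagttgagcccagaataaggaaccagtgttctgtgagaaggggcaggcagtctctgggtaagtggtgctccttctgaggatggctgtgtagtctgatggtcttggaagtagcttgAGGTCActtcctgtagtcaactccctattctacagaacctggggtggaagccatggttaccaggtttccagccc
Pck1: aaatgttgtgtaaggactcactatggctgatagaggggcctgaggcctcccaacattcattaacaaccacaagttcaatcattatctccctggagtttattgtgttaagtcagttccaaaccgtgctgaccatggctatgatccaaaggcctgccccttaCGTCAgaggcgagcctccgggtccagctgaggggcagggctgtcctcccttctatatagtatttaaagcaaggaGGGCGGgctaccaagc
Agpat2: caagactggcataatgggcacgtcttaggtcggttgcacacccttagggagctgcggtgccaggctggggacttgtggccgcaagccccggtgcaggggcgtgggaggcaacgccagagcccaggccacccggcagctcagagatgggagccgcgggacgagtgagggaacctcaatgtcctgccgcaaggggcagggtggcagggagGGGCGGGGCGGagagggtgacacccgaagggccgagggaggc
Gpam start 1: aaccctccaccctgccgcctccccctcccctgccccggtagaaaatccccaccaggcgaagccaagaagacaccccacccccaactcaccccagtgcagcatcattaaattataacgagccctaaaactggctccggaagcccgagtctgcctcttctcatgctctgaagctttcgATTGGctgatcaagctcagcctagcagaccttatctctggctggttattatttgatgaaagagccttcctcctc
Gpam start 2: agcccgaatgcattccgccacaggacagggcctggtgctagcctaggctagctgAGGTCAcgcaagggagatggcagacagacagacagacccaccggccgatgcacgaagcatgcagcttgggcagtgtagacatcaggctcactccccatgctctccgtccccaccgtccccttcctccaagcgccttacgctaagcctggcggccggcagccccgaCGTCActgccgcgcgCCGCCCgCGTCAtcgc

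Some motifs were shared among these windows. AGGTCA, the core of nuclear receptor sites such as that of PPARG, was found 69 to 74 bases before the start of Lpin1 and 191 to 196 bases before start 2 of Gpam, and 14.0% of all 32851 RefSeq windows of this length hold it. TGACG, part of the cyclic AMP response element, was found as CGTCA 90 bases before the start of Pck1, where cyclic AMP is known to act, and at 2 places before start 2 of Gpam, against 17.8% of all windows. GGGCGG, the GC box, was found before Pck1, before start 2 of Gpam and, as an overlapping pair, before Agpat2 (32.7% of all windows). CCAAT was found as ATTGG before start 1 of Gpam (33.8% of all windows). Of the remaining motifs, TATAAA (12.4%), CACGTG (6.02%) and TTGCNNAA (9.56%, a core of C/EBP sites) had no match in the 5 printed windows. CACGTG was found before a start of Lpin2, overlapping a CGTCA, and an 8-base TTGCNNAA match before another. The GC content was 54.8% for Lpin1, 50.8% for Pck1, 69.2% for Agpat2 and 54.8% and 66.0% for starts 1 and 2 of Gpam, against a median of 52.4% over all windows. A match is a stretch of letters and was not tested for binding.

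Over the 10 genes, the sum of FPKM was 52.3 and 79.9 in Ctl 1 and Ctl 2, with 135.4 and 2714 in ATO 1 and ATO 2. ATO 2 thus stood far above the other 3 sarcomas, and Gpd1 alone made 66.0% of its sum. The fitted level was higher in ATO for 8 of the 10 and lower for Lpin3 and Mogat2, with a median log2 fold change of 3.41, against -0.02 over the 17188 genes tested. In 4 of the 10 each ATO value exceeded each Ctl value (Lpin1, Gpam, Gpd1 and Pck1), a pattern seen in 19.7% of all tested genes, and in 1 each was below (Mogat2), as in 20.2% of all tested genes. All 10 passed the filter on low counts, Pck1 through its counts in ATO. Since these values chose the genes, no test of the 10 is given, and nothing is read from how many of them differed.

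**Figure D1:**
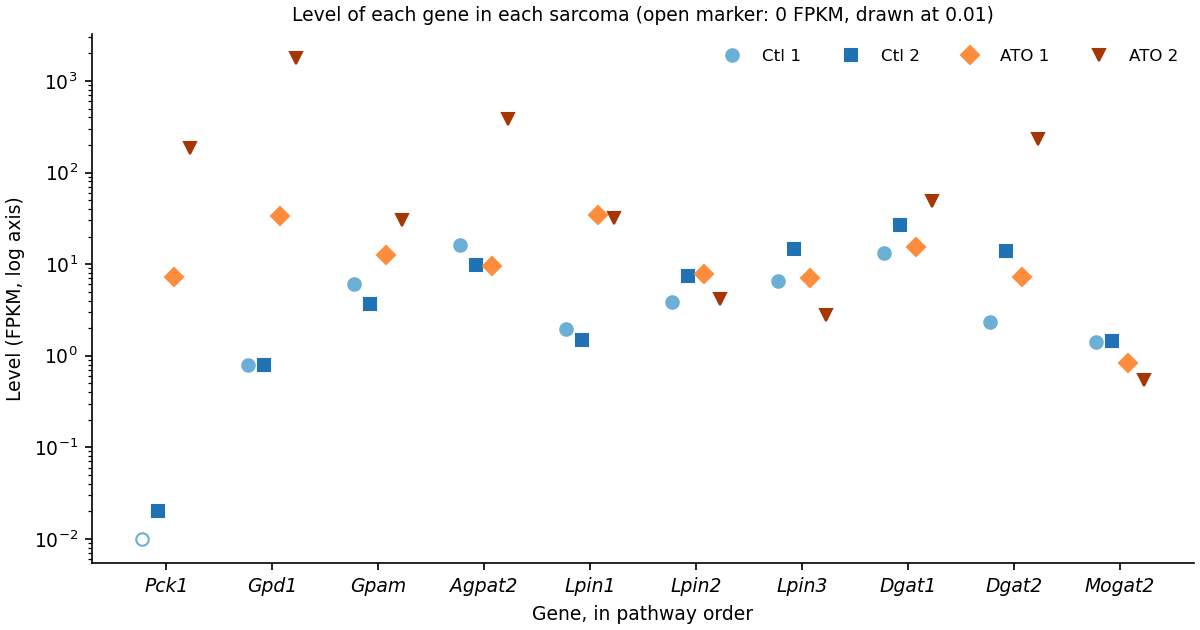
Level of each of the 10 genes in each sarcoma, in FPKM on a log axis, with Ctl 1, Ctl 2, ATO 1 and ATO 2 as separate markers and the 0 FPKM of Pck1 in Ctl 1 as an open marker at 0.01. Lpin1 has its ATO markers close together, at 33.96 and 32.0, while Gpd1, Agpat2, Dgat2 and Pck1 are far higher in ATO 2 than in ATO 1.

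The supply of glycerol 3-phosphate comes first in the pathway. Gpd1 (ENSMUSG00000023019; GRCm38 chromosome 15, 99717515 to 99725005, plus strand) encodes the cytosolic glycerol-3-phosphate dehydrogenase, which reduces dihydroxyacetone phosphate to the backbone of triglyceride. It had 41 and 42 counts in Ctl 1 and Ctl 2, with 1807 and 80909 in ATO 1 and ATO 2, or 0.79, 0.79, 33.65 and 1791 FPKM. The groups did not overlap, the Ctl sarcomas were nearly equal, and the ATO sarcomas differed 65.3-fold in normalised CPM. By FPKM Gpd1 was in place 17 of all genes in ATO 2, place 1311 in ATO 1 and places 14198 and 14812 in Ctl. Its fitted log2 fold change was 10.58 (SE 2.57, n = 2 per group) and 5.54 without ATO 2. The antisense gene Gm16537, which overlaps Gpd1, had between 0 and 112 counts, and without a stated strand setting its reads cannot be told apart from those of Gpd1.

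Pck1 (ENSMUSG00000027513; chromosome 2, 173153048 to 173159273, plus strand) encodes the cytosolic phosphoenolpyruvate carboxykinase. It had 0 and 1 counts in Ctl 1 and Ctl 2, with 445 and 9813 in ATO 1 and ATO 2, and 0.02, 7.16 and 187.5 FPKM in the last 3. Both Ctl sarcomas were thus under the limit of 3 counts, and ATO 2 lay 32.2-fold above ATO 1 in normalised CPM. The ratio of the summed counts, 10258 in ATO to 1 in Ctl, was 13000 after scaling, with an exact 95% interval for counting error only from 2330 to 513000. The fitted log2 fold change of 13.59 (SE 2.66) depends on the small value added to counts near 0, and was 9.58 without ATO 2. Liver and kidney also express Pck1 strongly. Of the hepatocyte markers, Cyp2e1 had 0 and 4 counts in Ctl 1 and Ctl 2, and 779 and 444 in ATO 1 and ATO 2. The other hepatocyte and kidney markers had at most 22 counts in a sarcoma. The tissue from which the Pck1 counts came was not tested.

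Both genes made a larger share of their family in ATO than in Ctl. Pck2, the mitochondrial carboxykinase, had 6.47 and 7.8 FPKM in Ctl, 9.97 in ATO 1 and 3.66 in ATO 2 (log2 fold change 0.15, SE 0.51). Pck1 therefore made at most 0.256% of the carboxykinase FPKM in Ctl, 41.8% in ATO 1 and 98.1% in ATO 2. Gpd1l, a close relative of Gpd1, lay between 6.1 and 7.74 FPKM in all 4 sarcomas (log2 fold change 0.49, SE 0.38), so that the share of Gpd1 in the sum of both genes went from 11.5% and 10.2% in Ctl to 81.3% in ATO 1 and 99.6% in ATO 2. The paralogs themselves differed between the groups by less than 0.5 on the log2 scale.

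**Figure D2:**
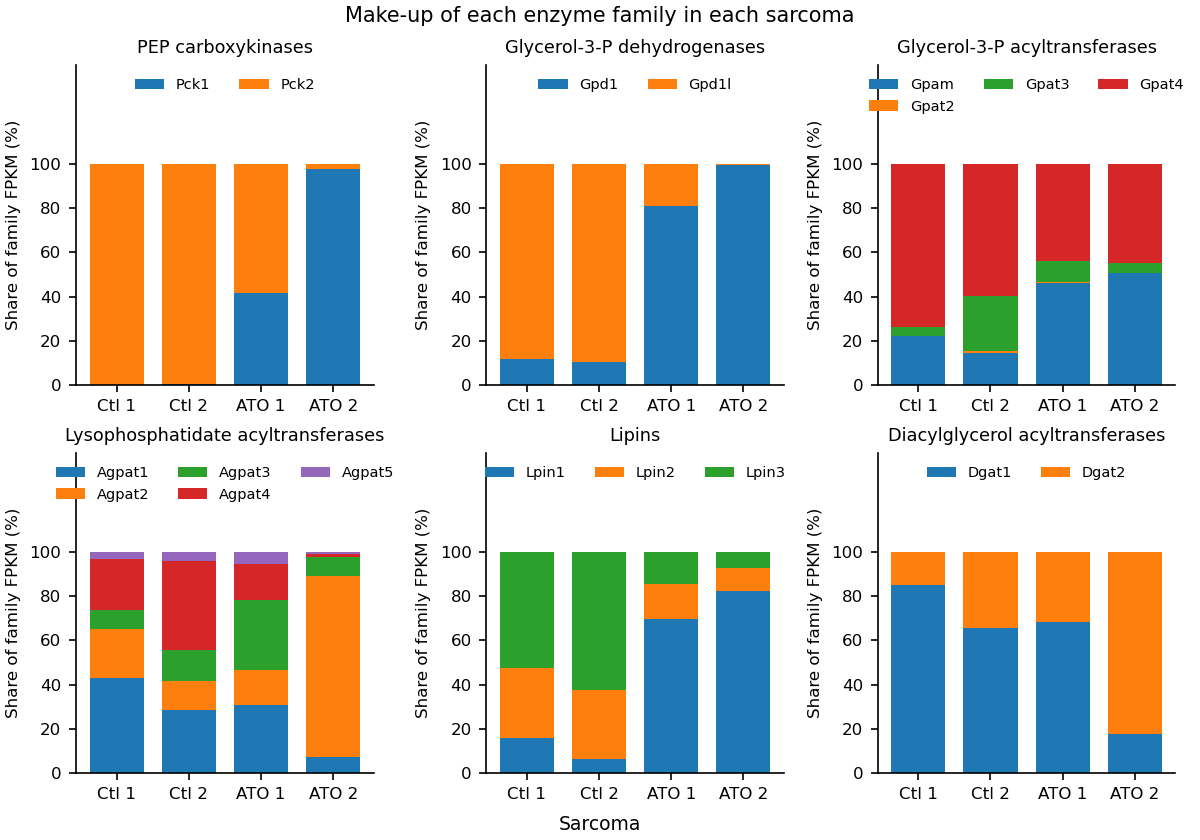
Share of each gene in the summed FPKM of its enzyme family, in percent, as stacked bars for the 4 sarcomas, 1 panel per family. Lpin1 makes 69.6% and 82.3% of lipin FPKM in ATO 1 and ATO 2 and 15.9% and 6.29% in Ctl 1 and Ctl 2, while Agpat2 and Dgat2 make most of their families in ATO 2 only.

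The acylation steps differed between the ATO sarcomas. Gpam (ENSMUSG00000024978; chromosome 19, 55067268 to 55127238, minus strand), the mitochondrial enzyme of the first acylation, had 6.03 and 3.63 FPKM in Ctl 1 and Ctl 2, with 12.69 and 30.33 in ATO 1 and ATO 2. The groups did not overlap, at 166 ± 115 CPM (SD, n = 2) for ATO against 29.4 ± 10.6 (SD, n = 2) for Ctl. The fitted log2 fold change was 2.49 (SE 0.69) and 1.52 without ATO 2. Gpat4, which catalyses the same step at the endoplasmic reticulum as Gpat3 does, overlapped between the groups at 20.21 and 15.07 FPKM in Ctl and 11.99 and 26.79 in ATO (log2 fold change 0.47, SE 0.61). Gpat3 had 1.16 and 6.21 FPKM in Ctl and 2.58 and 2.73 in ATO. The share of Gpam in the FPKM of the 4 acyltransferases was 22.0% and 14.4% in Ctl, 46.3% in ATO 1 and 50.7% in ATO 2, against 43.8% and 44.7% for Gpat4 in ATO 1 and ATO 2.

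Agpat2 (ENSMUSG00000026922; chromosome 2, 26593057 to 26604417, minus strand), the acyltransferase that makes phosphatidic acid in fat, was high in 1 sarcoma. It had 16.07 and 9.85 FPKM in Ctl 1 and Ctl 2, with 9.63 and 381.5 in ATO 1 and ATO 2. ATO 1 was the lowest of the 4 by FPKM and lay between the Ctl sarcomas by normalised CPM, although all 8 adipocyte markers were above Ctl there, and ATO 2 was 48.6-fold above ATO 1. The fitted log2 fold change of 4.33 (SE 1.81) was -0.30 without ATO 2. Agpat2 made 82.4% of the FPKM of 5 Agpat genes in ATO 2, against 13.3% to 21.9% elsewhere. Agpat1 had 31.73 and 21.01 FPKM in Ctl and 18.16 and 32.51 in ATO (log2 fold change 0.26, SE 0.54). Agpat3 had 6.4 and 10.41 FPKM in Ctl and 18.9 and 38.33 in ATO, without overlap (log2 fold change 2.10, SE 0.64, edgeR adjusted p 0.570), and made the largest share of the family in ATO 1 (31.8%). Agpat5 lay between 2.36 and 3.13 FPKM in all 4 sarcomas (log2 fold change 0.41, SE 0.39). The end of Agpat2 overlaps that of Egfl7 on the other strand, which had 10020 counts in Ctl 2 against 1252 to 1475 elsewhere, and the part of shared reads in the values of either gene was not tested.

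The makeup of the lipin family differed between the groups. Lpin1 (ENSMUSG00000020593; chromosome 12, 16535669 to 16610966, minus strand), the main phosphatidate phosphatase of fat and muscle, had 341 and 264 counts in Ctl 1 and Ctl 2, with 6116 and 4849 in ATO 1 and ATO 2. These were 1.97, 1.48, 33.96 and 32.0 FPKM, so that both ATO sarcomas were high and nearly equal. Normalised levels were 362 ± 37.2 CPM (SD, n = 2) for ATO against 15.6 ± 3.28 (SD, n = 2) for Ctl. The fitted log2 fold change was 4.54, with the smallest SE of the 10 genes (0.49), and stayed between 4.34 and 4.77 with each sarcoma left out. By FPKM, Lpin1 was in place 1294 and 1415 of all genes in ATO and 11535 and 12760 in Ctl.

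Lpin2 (ENSMUSG00000024052; chromosome 17, 71182560 to 71249817, plus strand), a lipin best known from liver, had 3.9 and 7.4 FPKM in Ctl 1 and Ctl 2, with 7.88 and 4.11 in ATO 1 and ATO 2. The groups overlapped, with ATO 1 highest and Ctl 1 lowest. The fitted log2 fold change was 0.32 (SE 0.50), 0.62 without ATO 2, -0.06 without Ctl 1 and -0.05 without ATO 1. Lpin3 (ENSMUSG00000027412; chromosome 2, 160880670 to 160906002, plus strand), a lipin with the same phosphatase reaction, had 6.49 and 14.66 FPKM in Ctl, 6.97 in ATO 1 and 2.75 in ATO 2. ATO 2 was the lowest and Ctl 2 the highest, with ATO 1 next to Ctl 1. The log2 fold change was -0.90 (SE 0.63), -0.46 without ATO 2, -0.21 without Ctl 2 and -1.53 without ATO 1. Lpin3 was the lipin with the highest FPKM in both Ctl sarcomas (52.5% and 62.3% of the lipin sum) and the lowest in both ATO sarcomas (14.3% and 7.08%), and Lpin1 the reverse. The 3 lipins together reached 12.4 and 23.5 FPKM in Ctl against 48.8 and 38.9 in ATO.

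At the last step, Dgat1 and Dgat2 are unrelated enzymes with the same reaction. Dgat1 (ENSMUSG00000022555; chromosome 15, 76502015 to 76511953, minus strand) had 13.32 and 26.66 FPKM in Ctl 1 and Ctl 2, with 15.45 and 49.41 in ATO 1 and ATO 2. ATO 2 was highest, and ATO 1 lay between the Ctl sarcomas. The log2 fold change was 1.06 (SE 0.79) and -0.23 without ATO 2. Dgat2 (ENSMUSG00000030747; chromosome 7, 99153658 to 99182719, minus strand) had 2.32 and 13.95 FPKM in Ctl 1 and Ctl 2, with 7.17 and 235.3 in ATO 1 and ATO 2. ATO 1 again lay between the Ctl sarcomas, which themselves differed 5.92-fold in normalised CPM, and ATO 2 was 40.3-fold above ATO 1. The log2 fold change was 4.32 (SE 1.95) and -0.04 without ATO 2. Dgat2 made 82.6% of the summed FPKM of both genes in ATO 2, against 31.7% in ATO 1 and 14.8% and 34.4% in Ctl.

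Mogat2 (ENSMUSG00000052396; chromosome 7, 99219084 to 99238619, minus strand) is the neighbour of Dgat2 and belongs to the same enzyme family. The genes lie 36364 bases apart on the same strand. Gm45012, on the other strand, overlaps Mogat2 and reaches into this interval, and it had 1 count in Ctl 1 and 12 in ATO 2, which cannot be told apart from reads of Mogat2 without a stated strand setting. Mogat2 had 45 and 47 counts in Ctl 1 and Ctl 2, with 28 and 15 in ATO 1 and ATO 2, or 1.4, 1.43, 0.84 and 0.54 FPKM. It was low in all 4 sarcomas and lowest in ATO 2, where Dgat2 was highest. The log2 fold change was -0.78 (SE 0.66) and -0.61 without ATO 2. Its paralog Mogat1 had 0.07 and 0.39 FPKM in Ctl, 0.21 in ATO 1 and 5.22 in ATO 2 (log2 fold change 3.92, SE 1.85), with the sarcomas in the same order of levels as for Dgat2. Of the 5 enterocyte markers, Apoa4 and Alpi had 0 counts in all 4 sarcomas, Fabp2 and Sis had 2 and 1 counts in Ctl 1 and 0 elsewhere, and Vil1 had 3 and 88 counts in Ctl and 8 and 6 in ATO.

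**Figure D3:**
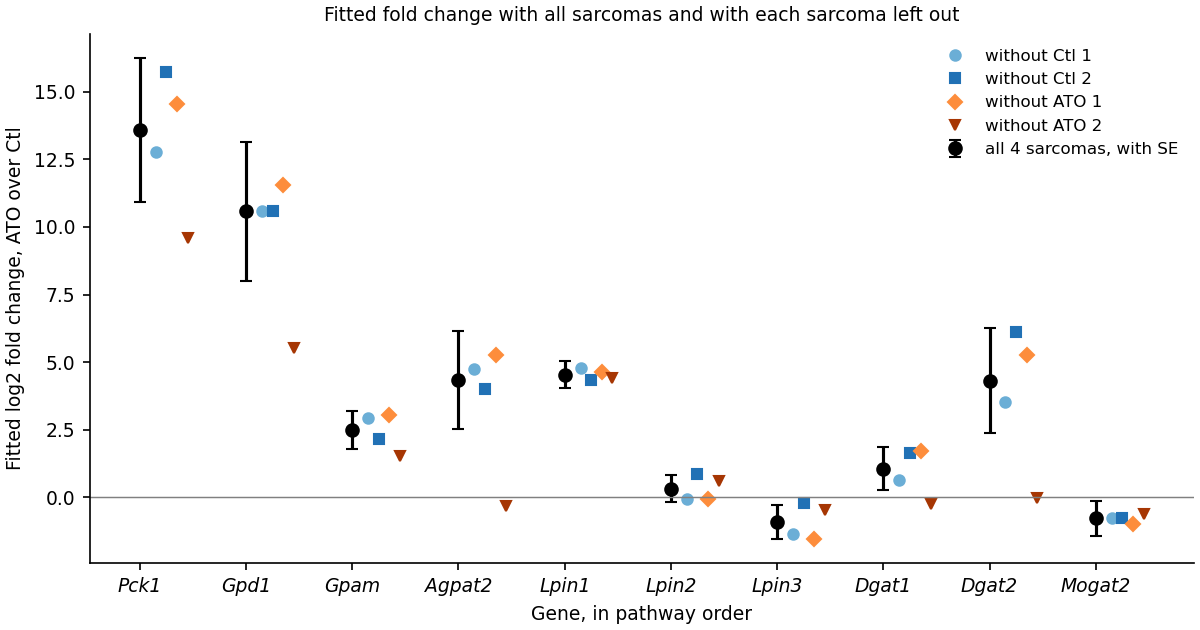
Fitted log2 fold change of ATO over Ctl for the 10 genes in edgeR, with its SE as bars (black), and the value with each sarcoma left out in turn (coloured markers). Lpin1 stays between 4.34 and 4.77, while Agpat2, Dgat1 and Dgat2 fall below 0 without ATO 2.

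How far the genes followed the markers of fat and muscle was examined through the ratio of ATO 2 to ATO 1. This ratio compares 2 libraries and has no replicate check. In normalised CPM it was 65.3 for Gpd1, 48.6 for Agpat2, 40.3 for Dgat2 and 32.2 for Pck1, all above the ratios of the 8 adipocyte markers, which ranged from 2.69 (Lep) to 25.0 (Plin1). The brown adipocyte markers ranged from 16.3 (Cox8b) to 54100 (Ucp1, with 1 count in ATO 1). Gpd1, Agpat2, Dgat2 and Pck1 lay above Cox8b but below each of the other brown adipocyte markers, Elovl3 (220), Cidea (565) and Ucp1. Dgat1 (3.93) and Gpam (2.93) lay within the range of the adipocyte markers. Lpin1 had a ratio of 1.16, below each adipocyte marker and above each of the 8 skeletal muscle markers, which ranged from 0.0367 to 0.141. Mogat2 (0.781), Lpin2 (0.640) and Lpin3 (0.484) were lower in ATO 2 than in ATO 1. Gpd1, Pck1 and Gpam were thus above Ctl in both ATO sarcomas but higher in ATO 2. Lpin1 was above Ctl at nearly the same level in both. Agpat2, Dgat1 and Dgat2 were above both Ctl sarcomas in ATO 2 alone.

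**Figure D4:**
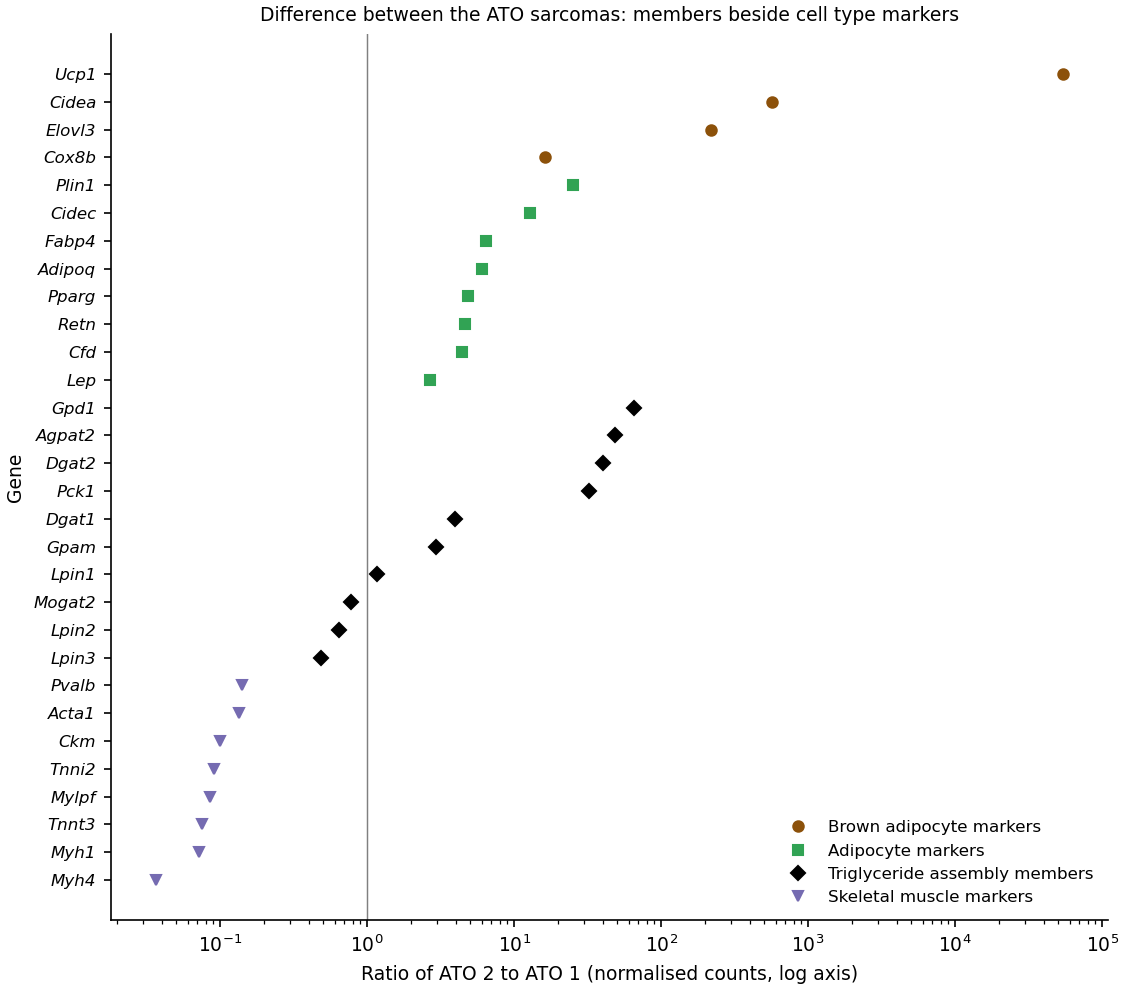
Ratio of ATO 2 to ATO 1 in normalised counts, on a log axis, for the 10 genes (diamonds) and for brown adipocyte, adipocyte and skeletal muscle markers. Gpd1, Agpat2, Dgat2 and Pck1 sit to the right of Plin1, the adipocyte marker with the highest ratio (25.0), and Lpin1 sits near 1.

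The genes with the most similar pattern were sought over 17187 other tested genes, by the Euclidean distance of log2(CPM + 1) centred on the mean of the 4 sarcomas. For Lpin1 these were Slc25a34 (distance 0.631), a mitochondrial carrier, with 0.09 and 0.02 FPKM in Ctl and 5.76 and 4.74 in ATO, then Mapt (0.661), which encodes tau, and Pdk2 (0.750), a pyruvate dehydrogenase kinase, with 6.01 and 4.45 FPKM in Ctl and 57.48 and 62.84 in ATO. For Dgat2 they were Ighg1 (0.730), an immunoglobulin heavy chain, G0s2 (1.01), an inhibitor of adipose triglyceride lipase, and Nat8l (1.03), the enzyme that makes N-acetylaspartate. G0s2 had 1.64 and 6.52 FPKM in Ctl, 9.31 in ATO 1 and 255.8 in ATO 2. The 1 added to CPM narrows differences near 0, where Slc25a34 lay in Ctl. With 4 sarcomas, likeness is a description only.

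The other genes of triglyceride assembly were read from a list of 27 genes, of which 26 were tested (Gpat2, with at most 12 counts, was not). Its median log2 fold change was 0.48, against -0.02 for all genes tested, with 18 genes fitted higher and 8 lower, and the median was 0.00 without ATO 2. In edgeR 0 of the 26 passed an adjusted p of 0.05. At an unadjusted p under 0.05, 6 were higher in ATO, against 5.44% of all genes tested, and 0 were lower, against 3.07%. At an adjusted p under 0.05, DESeq2 called 4 higher, against 3.26% of all genes, and 0 lower, against 0.896%. The 4 were Aqp7, Fitm1, Acsl1 and Fitm2, the last of which was named after its values were seen. Aqp7 and Fitm1 passed the filter on low counts through their counts in ATO. The list was chosen with earlier results of these data known, so nothing is read from these shares.

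The highest fitted values of the list were those of Aqp7, Fitm1, Acsl1 and Mogat1. Acsl1, the main acyl-CoA synthetase of fat and muscle, had 2.66 and 3.57 FPKM in Ctl, 23.44 in ATO 1 and 77.28 in ATO 2, without overlap (log2 fold change 4.37, SE 0.90, edgeR adjusted p 0.570). Aqp7, the glycerol channel of adipocytes, had 0 and 1 counts in Ctl, 69 in ATO 1 and 872 in ATO 2 (edgeR adjusted p 0.570), its fitted value of 10.13 depending on the small value added to counts near 0. Fitm1 and Fitm2 encode proteins that help triglyceride enter droplets. Fitm1, typical of skeletal muscle, was highest in ATO 1, with 14.94 FPKM there, 3.51 in ATO 2 and 0.06 and 0.46 in Ctl (log2 fold change 5.30, SE 1.33, edgeR adjusted p 0.570). Fitm2 had 14.97 and 25.37 FPKM in ATO and 4.84 and 3.56 in Ctl (log2 fold change 2.58, SE 0.54). Of genes chosen after their values were seen, Gpd2, the mitochondrial glycerol-3-phosphate dehydrogenase, had 7.21 and 9.99 FPKM in Ctl, 6.71 in ATO 1 and 86.91 in ATO 2 (log2 fold change 2.85, SE 1.32). Of other acyl-CoA synthetases, Acsl4 had a log2 fold change of -0.12 (SE 0.35), and Acsl6 had 130 and 414 counts in Ctl, 1251 in ATO 1 and 22 in ATO 2.

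The lowest fold changes of the list belonged to phosphatidate phosphatases outside the lipin family, the acyltransferase Agpat4 and Cnep1r1. Plpp2 had 9.45 and 34.68 FPKM in Ctl and 3.03 and 5.94 in ATO (log2 fold change -1.96, SE 0.85, edgeR adjusted p 0.599). Plpp1 had 30.4 and 58.12 FPKM in Ctl and 26.09 and 11.31 in ATO (log2 fold change -1.02, SE 0.55). Agpat4 had 16.94 and 29.83 FPKM in Ctl and 9.58 and 7.72 in ATO (log2 fold change -1.17, SE 0.45, edgeR adjusted p 0.585). Each ATO value was below each Ctl value in 4 of the 26 genes (these 3 and Cnep1r1), beside 20.2% of all tested genes, and above in 9, beside 19.7%. Cnep1r1, a subunit of the phosphatase that dephosphorylates lipins, had a log2 fold change of -0.24 (SE 0.35) at between 10.89 and 19.36 FPKM.

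Phosphatidic acid and diacylglycerol also feed phospholipid synthesis, and 21 genes of those routes served for comparison. Their median log2 fold change was 0.04, with 11 fitted higher and 10 lower, and -0.22 without ATO 2. In edgeR 0 of 21 passed an adjusted p of 0.05, at an unadjusted p under 0.05 2 were higher and 1 lower, and DESeq2 called 1 higher and 0 lower, beside the shares of all genes given above. The gene DESeq2 called was Chpt1, the cholinephosphotransferase that turns diacylglycerol into phosphatidylcholine, with 313 and 199 counts in Ctl, 974 in ATO 1 and 12707 in ATO 2 (log2 fold change 5.34, SE 1.57, edgeR adjusted p 0.570). Crls1, the cardiolipin synthase of mitochondria, had 12.46 and 6.04 FPKM in Ctl, 7.47 in ATO 1 and 47.31 in ATO 2 (log2 fold change 1.95, SE 1.06). Cds1, which makes CDP-diacylglycerol, had 1.86 and 2.05 FPKM in Ctl, 1.82 in ATO 1 and 5.02 in ATO 2 (log2 fold change 1.16, SE 0.75). Ptdss2 was above Ctl in both ATO sarcomas (log2 fold change 1.12, SE 0.39), and Selenoi, which makes phosphatidylethanolamine from diacylglycerol, was below it in both (-0.79, SE 0.38). Pisd (-0.62, SE 0.57) and Pgs1 (-0.58, SE 0.42) were also fitted lower. Etnk2 had the lowest value (-3.44, SE 1.06), with 10 and 34 counts in Ctl and 2 and 1 in ATO. It passed the filter on low counts through its counts in Ctl.

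**Figure D5:**
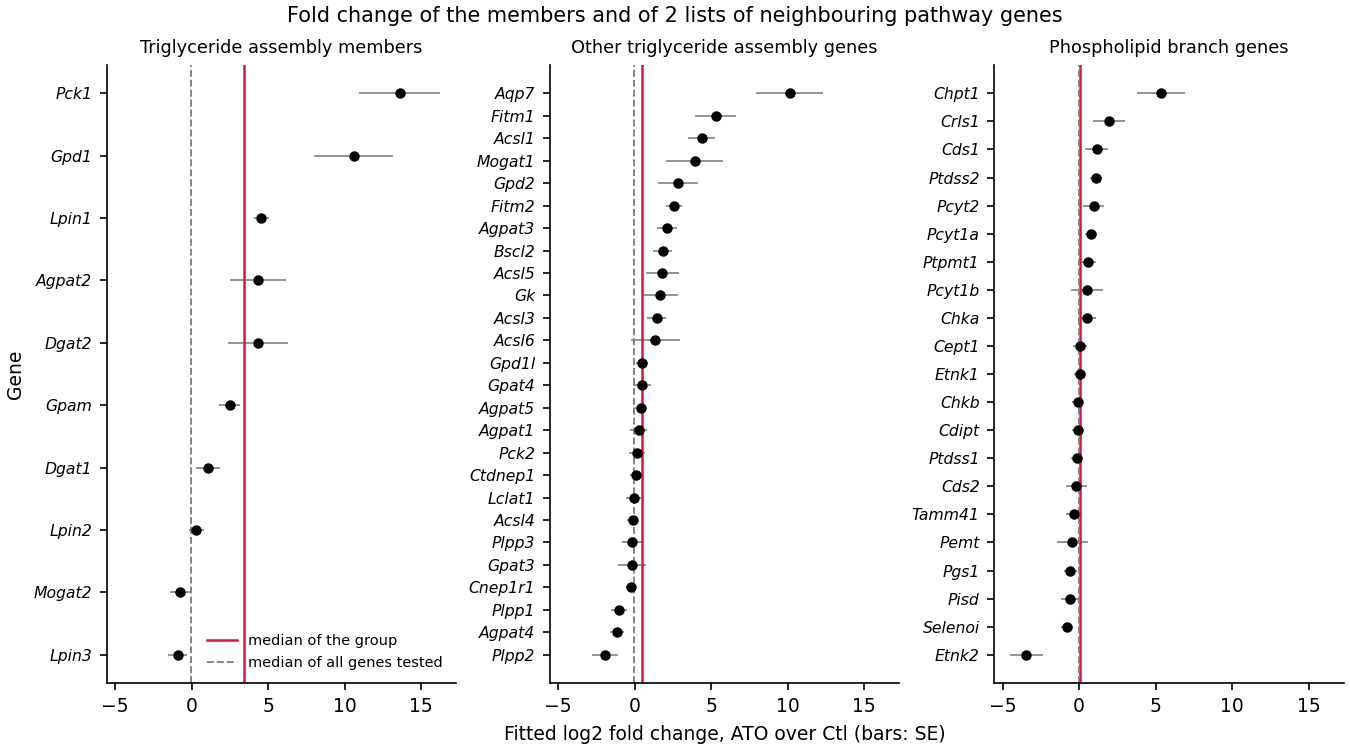
Fitted log2 fold change of ATO over Ctl with its SE for the 10 genes, 26 other triglyceride assembly genes and 21 phospholipid branch genes, with the median of each group (red) and of all genes tested (dashed grey). The group medians are 3.41, 0.48 and 0.04, and the 10 genes were selected on this difference.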

How the data were processed

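Tumor RNA of 4 sarcomas was sequenced as 150 bp paired-end reads. The authors checked reads with FastQC 0.10.1, trimmed them with cutadapt 1.9.1, aligned them to GRCm38 with HISAT2 2.0.1 and counted them per gene with HTSeq, and they deposited the raw counts. The authors also deposited FPKM, which were equal to the count divided by exonic length and library total within 0.0051 for 100% of genes. Strand setting and treatment of reads with several alignments are not given in the sources used here. Gene positions in the table differ from GRCm38, so positions were taken from GENCODE M21 by gene identifier.

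Counts of ATO and Ctl sarcomas, grouped by the treatment in the labels, were compared in edgeR 4.0.16 (R 4.3.3: filterByExpr, TMM, trended dispersion, quasi-likelihood F-test, Benjamini-Hochberg adjustment, two-sided, threshold 0.05). The test covered 17188 of 56691 genes, with at least 99.49% of each library, at a biological coefficient of variation of 62.5%. Fold changes are fitted log2 values, and their SE is the absolute fold change divided by the square root of the F statistic. The p-values set the difference between groups against the spread between these sarcomas, which was estimated partly from other genes. Intervals and floors cover counting error only. The fit was repeated in DESeq2 1.42.0, in edgeR with DESeq2 size factors, unfiltered or filtered at a mean FPKM of 1, with the replicate number as a block, without each sarcoma, and in limma 3.58.1 on log2 FPKM (pseudocount 1 or 0.1). The fit without mitochondrial genes and the count of non-overlapping genes by FPKM were chosen after seeing the data. Scripts were tested on simulated counts.

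The 10 genes and all lists were chosen with earlier results of these data known. The naming rule took the 10, the paralogs Gpat3, Gpat4, Mogat1, Agpat1, Gpd1l and Pck2, genes with the largest fold changes of each list (up to 4 per direction), the 3 genes nearest to Lpin1 and Dgat2, and marker genes. Agpat3, Agpat5, Fitm2, Gpd2, Acsl4 and Acsl6 were named after their values were seen.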

Additional observations from a re-analysis of the deposited data

How the results depend on the processing

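With 2 sarcomas per group, 0 genes passed an adjusted p of 0.05 in edgeR (smallest adjusted p 0.570), 1463 had an unadjusted p under 0.05, and leaving out any sarcoma also gave 0. DESeq2 called 714 genes (560 higher, 154 lower), and the count was 541 in edgeR without a filter (454 higher, 87 lower), and 0 in the other alternatives. The cause was not tested. In fits without 1 sarcoma, the lone sarcoma is assumed to vary like the other group.

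Neither the labels nor the methods say that a shared replicate number pairs animals. Deviations from the group means correlated at 5.04e-05 within a number. Under the replicate block, 0 genes were called, with 1165 at an unadjusted p under 0.05.

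The median log2 fold change of the other triglyceride assembly genes (0.48) ranged from 0.00 (without ATO 2) to 0.84 with each sarcoma left out. That of the phospholipid branch genes (0.04) ranged from -0.22 (without ATO 2) to 0.28 and was -0.20 and -0.21 in limma on log2 FPKM with a pseudocount of 1 and 0.1, where the median of all genes was -0.23 and -0.28. Without ATO 2, the log2 fold change was -0.23 for Dgat1, -0.04 for Dgat2 and -0.30 for Agpat2. Left out in turn, the sarcomas gave up to 1.72, 6.11 and 5.28 for these 3 genes. Lpin2 was at -0.06 without Ctl 1, -0.05 without ATO 1 and at most 0.85. Of 120 alternative fold changes of the 10 genes, 105 moved by less than the spread between replicates, 10 moved by more without a change of sign, and these 5 changed sign. That limit differed by gene, so the 105 are not all small changes. Dgat2 at 6.11 without Ctl 2, from 4.32, was within it. Mogat2 at -0.61 without ATO 2, from -0.78, was not. The counts of 4 and 1 genes that did not overlap were the same by FPKM.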
